A study of Mus musculus with 15 samples.

Results

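The chemokines and chemokine receptors of the mouse liver were described across 15 female C57BL/6 mice. Members were chosen by symbol, as every protein-coding gene of the count table named Ccl, Cxcl, Ccr or Cxcr with a number, together with Cx3cl1, Cx3cr1, Xcl1 and Xcr1, which gave 62 of 55450 gene IDs. These 62 genes carry 57 symbols, and 44 of them encode ligands and 18 encode receptors. Poly(A) mRNA of whole liver was sequenced from 1 strand-specific library per mouse, with 5 mice in each of 3 groups. The Adult group (A1 to A5), labelled 6 months, received corn oil, the vehicle. The Old group (O1 to O5), labelled 22 months, received the same vehicle. The PDX group (P1 to P5), also labelled 22 months, received protectin DX, a lipid mediator made from docosahexaenoic acid, in corn oil at 30 ng per g of body weight. The study gives these ages for the baseline, before treatment, so the mice were older when the livers were taken. Gavage was daily for 9 weeks by the treatment protocol in the labels, whereas the series description gives 8 weeks. Old against Adult addresses ageing, and PDX against Old addresses the treatment. The count table held between 22424383 (A3) and 36070835 (A1) counts per mouse.

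Chemokines are small secreted proteins that guide leukocytes along concentration gradients, and their receptors are G protein-coupled receptors carried mainly by leukocytes. Inflammatory chemokines are induced by cytokines and microbial products, whereas homeostatic ones are made constantly and place cells within tissues. In the liver, hepatocytes, resident macrophages (Kupffer cells), sinusoidal endothelium and stellate cells all make chemokines, and neutrophils, monocytes and lymphocytes arrive in answer to them.

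Levels are given as CPM, the counts of a gene relative to the library total scaled by the TMM factor of edgeR. The tissue label was checked against hepatocyte markers. Albumin (Alb) had 111332 CPM on average in Adult mice, and all 5 hepatocyte markers were detected in every mouse. The summed hepatocyte list was lowest in O5 (58909 CPM) and O2 (74955 CPM), against 108069 to 200258 CPM in the other mice. O2 and O5 thus stood apart from the other mice in a measure that involves no chemokine. The labels give O2 the lowest frailty index of the Old mice (0.11) with 3 positive frailty criteria, and O5 the highest (0.56) with 4, and O3 and O4 also had 3 and 4 criteria. Ptprc, the CD45 antigen of all leukocytes, had 12.6, 127, 37.9, 11.1 and 8.12 CPM in O1 to O5, against 8.31 to 14.4 CPM in Adult and 21.6 to 47.9 CPM in PDX mice, so it set O2 apart but not O5. O2 held the highest CPM of all 15 mice for 23 of the 31 tested members (74.2%), against 20.1% of all tested genes. O5 held the lowest CPM for 13 of the 31 (41.9%), against 28.4% of all tested genes. Results that rest on these mice are therefore given with and without O2, and in places without O2 and O5.

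The low-count filter kept 31 members, 20 ligands and 11 receptors, and the 31 others were not tested. Of the untested genes, 11 had 0 counts in every mouse. They include the copies of Ccl19, Ccl21 and Ccl27 on unplaced scaffolds together with Ccl27b, and counting by unique alignment loses reads from near-identical copies, so their values, and those of Ccl27a, are uncertain. The other 20 untested members had some counts. Ccl7, a monocyte attractant, had 483 counts in O2 (14.1 CPM) and at most 35 in any other mouse. Ccr3, the eotaxin receptor of eosinophils, had 540 counts in O2 (15.8 CPM) and at most 46 in any other mouse. Ccl12, a monocyte chemokine named here after its values were seen, had 146 counts in O2 and at most 5 elsewhere. The filter, which asks for enough counts in as many mice as a group has, kept none of these 3, so they are missing from the counts of members tested with all 15 mice. Ccl7 is among the members tested without O2 and O5.

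To compare genes, CPM was divided by exon length in kb (RPKM). In Adult liver, Cxcl12, which retains hematopoietic cells and lymphocytes, had 46.0 ± 3.26 RPKM (SD, n = 5) and made up 43.5% of the summed ligand RPKM. Ccl9, a macrophage chemokine that binds Ccr1, had 27.1 ± 1.94 RPKM and made up 25.6%. The next ligands were Ccl6 at 5.57 ± 0.977 RPKM, Cxcl1 at 4.64 ± 1.65 RPKM and Cxcl9 at 4.44 ± 1.78 RPKM, and their order was not tested. Receptors were far lower per length. The summed receptor RPKM in Adult mice was 4.05 ± 0.457, against 106 ± 6.00 for the ligands. The summed ligand RPKM was 188, 1335, 144, 173 and 162 in O1 to O5 and 224, 261, 276, 192 and 193 in P1 to P5. All 10 Old and PDX mice lay above the Adult range of 98.6 to 111 RPKM, and O2 lay far above every other mouse. The composition differed as well. Cxcl13 made up 57.1% of the ligand RPKM in O2, whereas Cxcl1, Cxcl12 and Ccl9 led the PDX group mean with 18.8%, 17.9% and 16.8%. Cxcl13 also led in O5, at 70.5 RPKM. The order in the PDX mean lay within the spread, as Cxcl1 had 43.1 ± 21.8 RPKM there. The leading ligand was Cxcl1 in P1 and P2, Cxcl13 in P3, Ccl9 in P4 and Cxcl12 in P5.

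**Figure D1:**
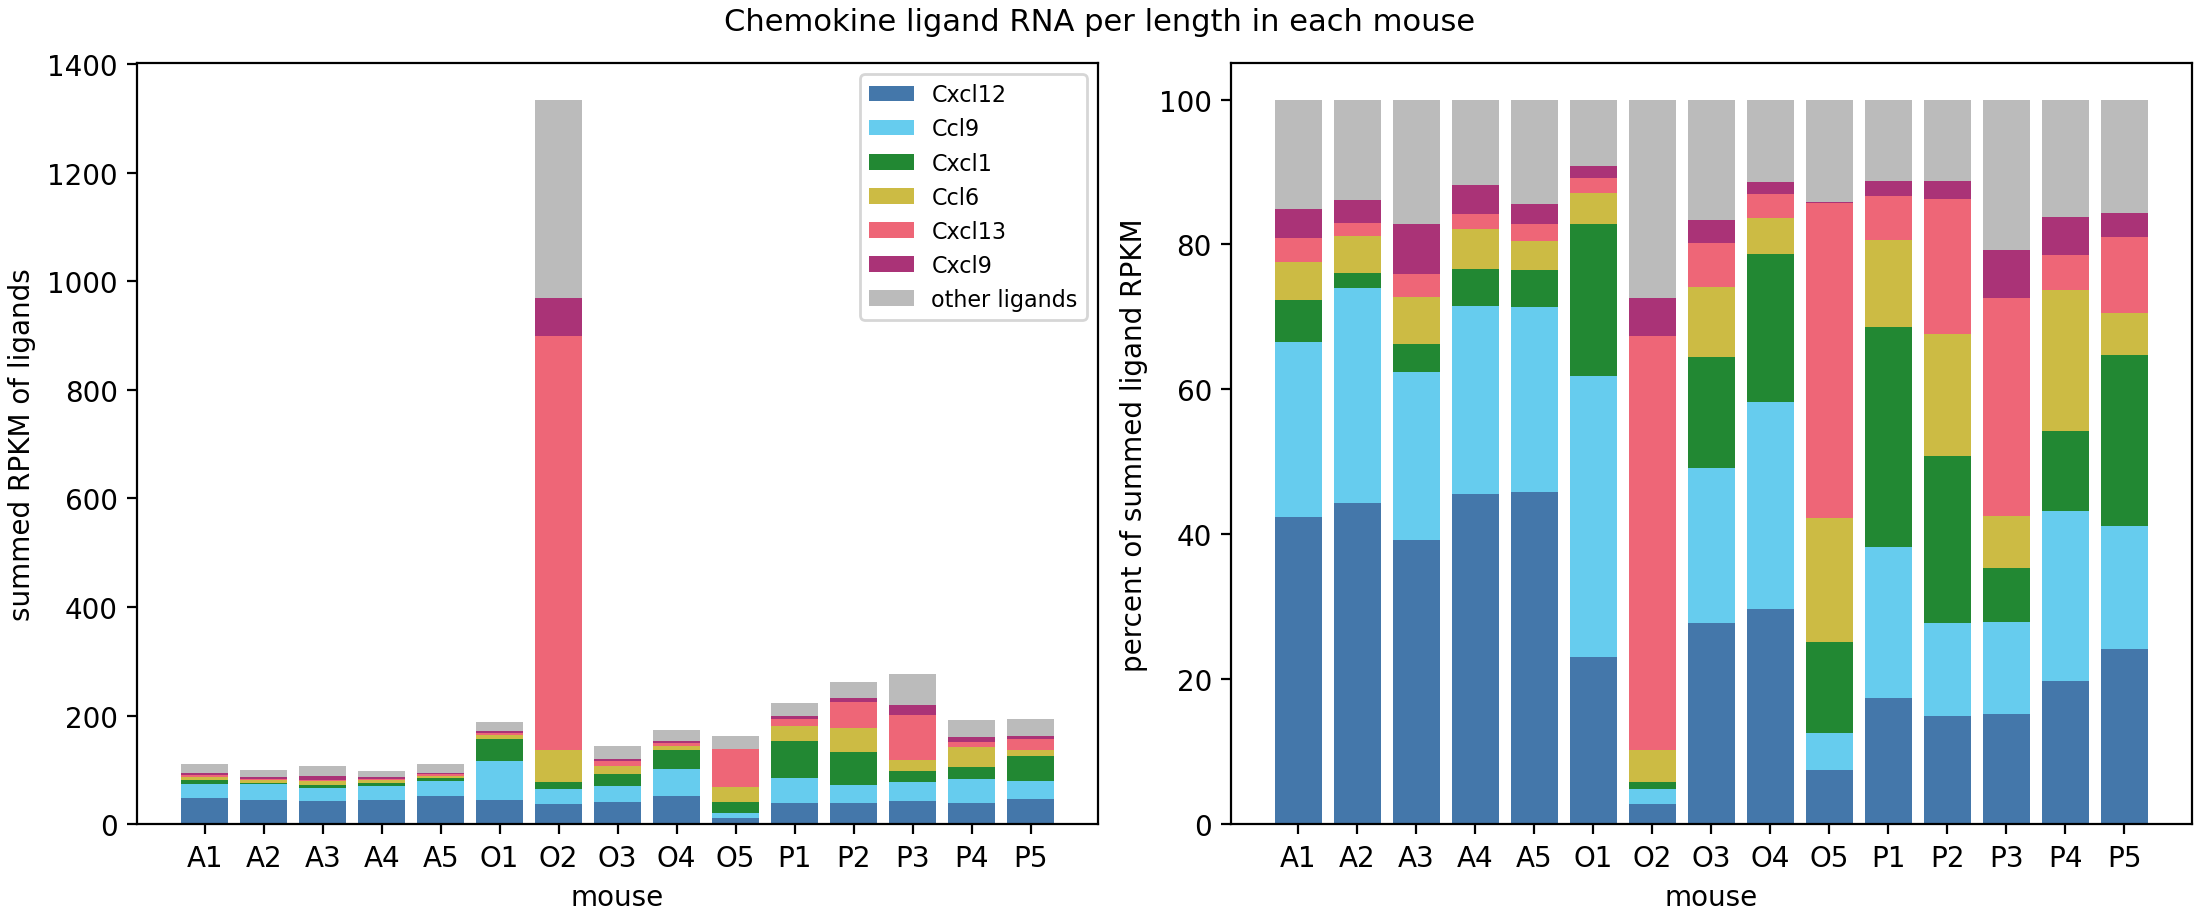
Summed RPKM of the 44 chemokine ligand genes in each of the 15 mice (left, bars from 0) and the percent of that sum from each ligand (right); colors mark 6 ligands and grey the others. Adult bars lie between 98.6 and 111 RPKM, O2 stands at 1335 RPKM, and Cxcl12 and Ccl9 take most of the Adult bars.

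Between Old and Adult livers, 12 of the 31 tested members were called, all of them higher in Old. That is 38.7% of the tested members, against 6.78% of all 15808 tested genes called in either direction and 4.71% called higher. Called means an adjusted p under 0.05 by the quasi-likelihood F test of edgeR, Benjamini-Hochberg adjusted over all tested genes. The 8 ligands were Ccl2, Ccl4, Ccl5, Ccl6, Ccl8, Cx3cl1, Cxcl1 and Cxcl13, and the 4 receptors were Ccr1, Cxcr2, Cxcr4 and Cxcr5. Ccl4 and Ccl8 had 1 to 5 and 0 to 3 counts in the Adult mice, and passed the filter through Old and PDX mice. The 38.7% thus counts members kept for their level in the groups where they are high. The median log2 fold change was 1.90 over the tested members and 0.07 over all tested genes, and 27 of the 31 had a higher fitted level in Old. The 5 Old mice lay above the 5 Adult mice without overlap for 6 members and below them for 1, the first being Ccl2, Ccl6, Ccr1, Cx3cl1, Cxcl1 and Cxcl14 and the last Ccl27a. Together these were 22.6% of the tested members, against 8.13% of all tested genes in either direction and 3.65% in the higher direction. At an unadjusted p under 0.05 there were 21 members (67.7%), against 27.7% of all tested genes. In whole-liver RNA, more cells of a type and more RNA per cell cannot be told apart, nor can fewer cells and less RNA per cell.

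The size of these differences depended on O2. Without O2, 6 members were called (Ccl2, Ccl8, Ccr1, Cx3cl1, Cxcl1 and Cxcr4), against 4.32% of all genes tested then, and the median member log2 fold change was 0.77. Without O2 and O5, 6 of 33 tested members were called (Ccl2, Ccl8, Ccl9, Ccr1, Cx3cr1 and Cxcl1), against 7.12% of all genes. When only O5 was left out, 17 of 31 tested members were called, against 2115 of 16027 genes, and the median was 2.17. It was 15 of 32 members when O1, O3 or O4 was left out, against 1588 of 16116, 2178 of 16087 and 1592 of 16042 genes. The calls also lay close to the threshold. Leaving out A1 kept the calls of Ccr1 and Cxcl1, with 243 of 16061 genes called, against 1072 of 15808 with all mice. Leaving out A2, A3, A4 or A5 kept Cxcl1 only. The genes called were then 187 of 16046, 195 of 16112, 206 of 16091 and 156 of 16076. Ccl5 and Cxcr2 also lost their calls when any PDX mouse was left out, Cxcr5 when P3, P4 or P5 was, and Cxcr2 when O5 was. A fit of only the 10 Old and Adult mice tested 25 members, and Ccl4 and Ccl8 were not among them. Cxcl1 was again the only member called, with 0.698% of all genes called. With the replicate number as a block, Cxcl1 and Cxcr4 were called, against 1.5% of all genes.

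**Figure D2:**
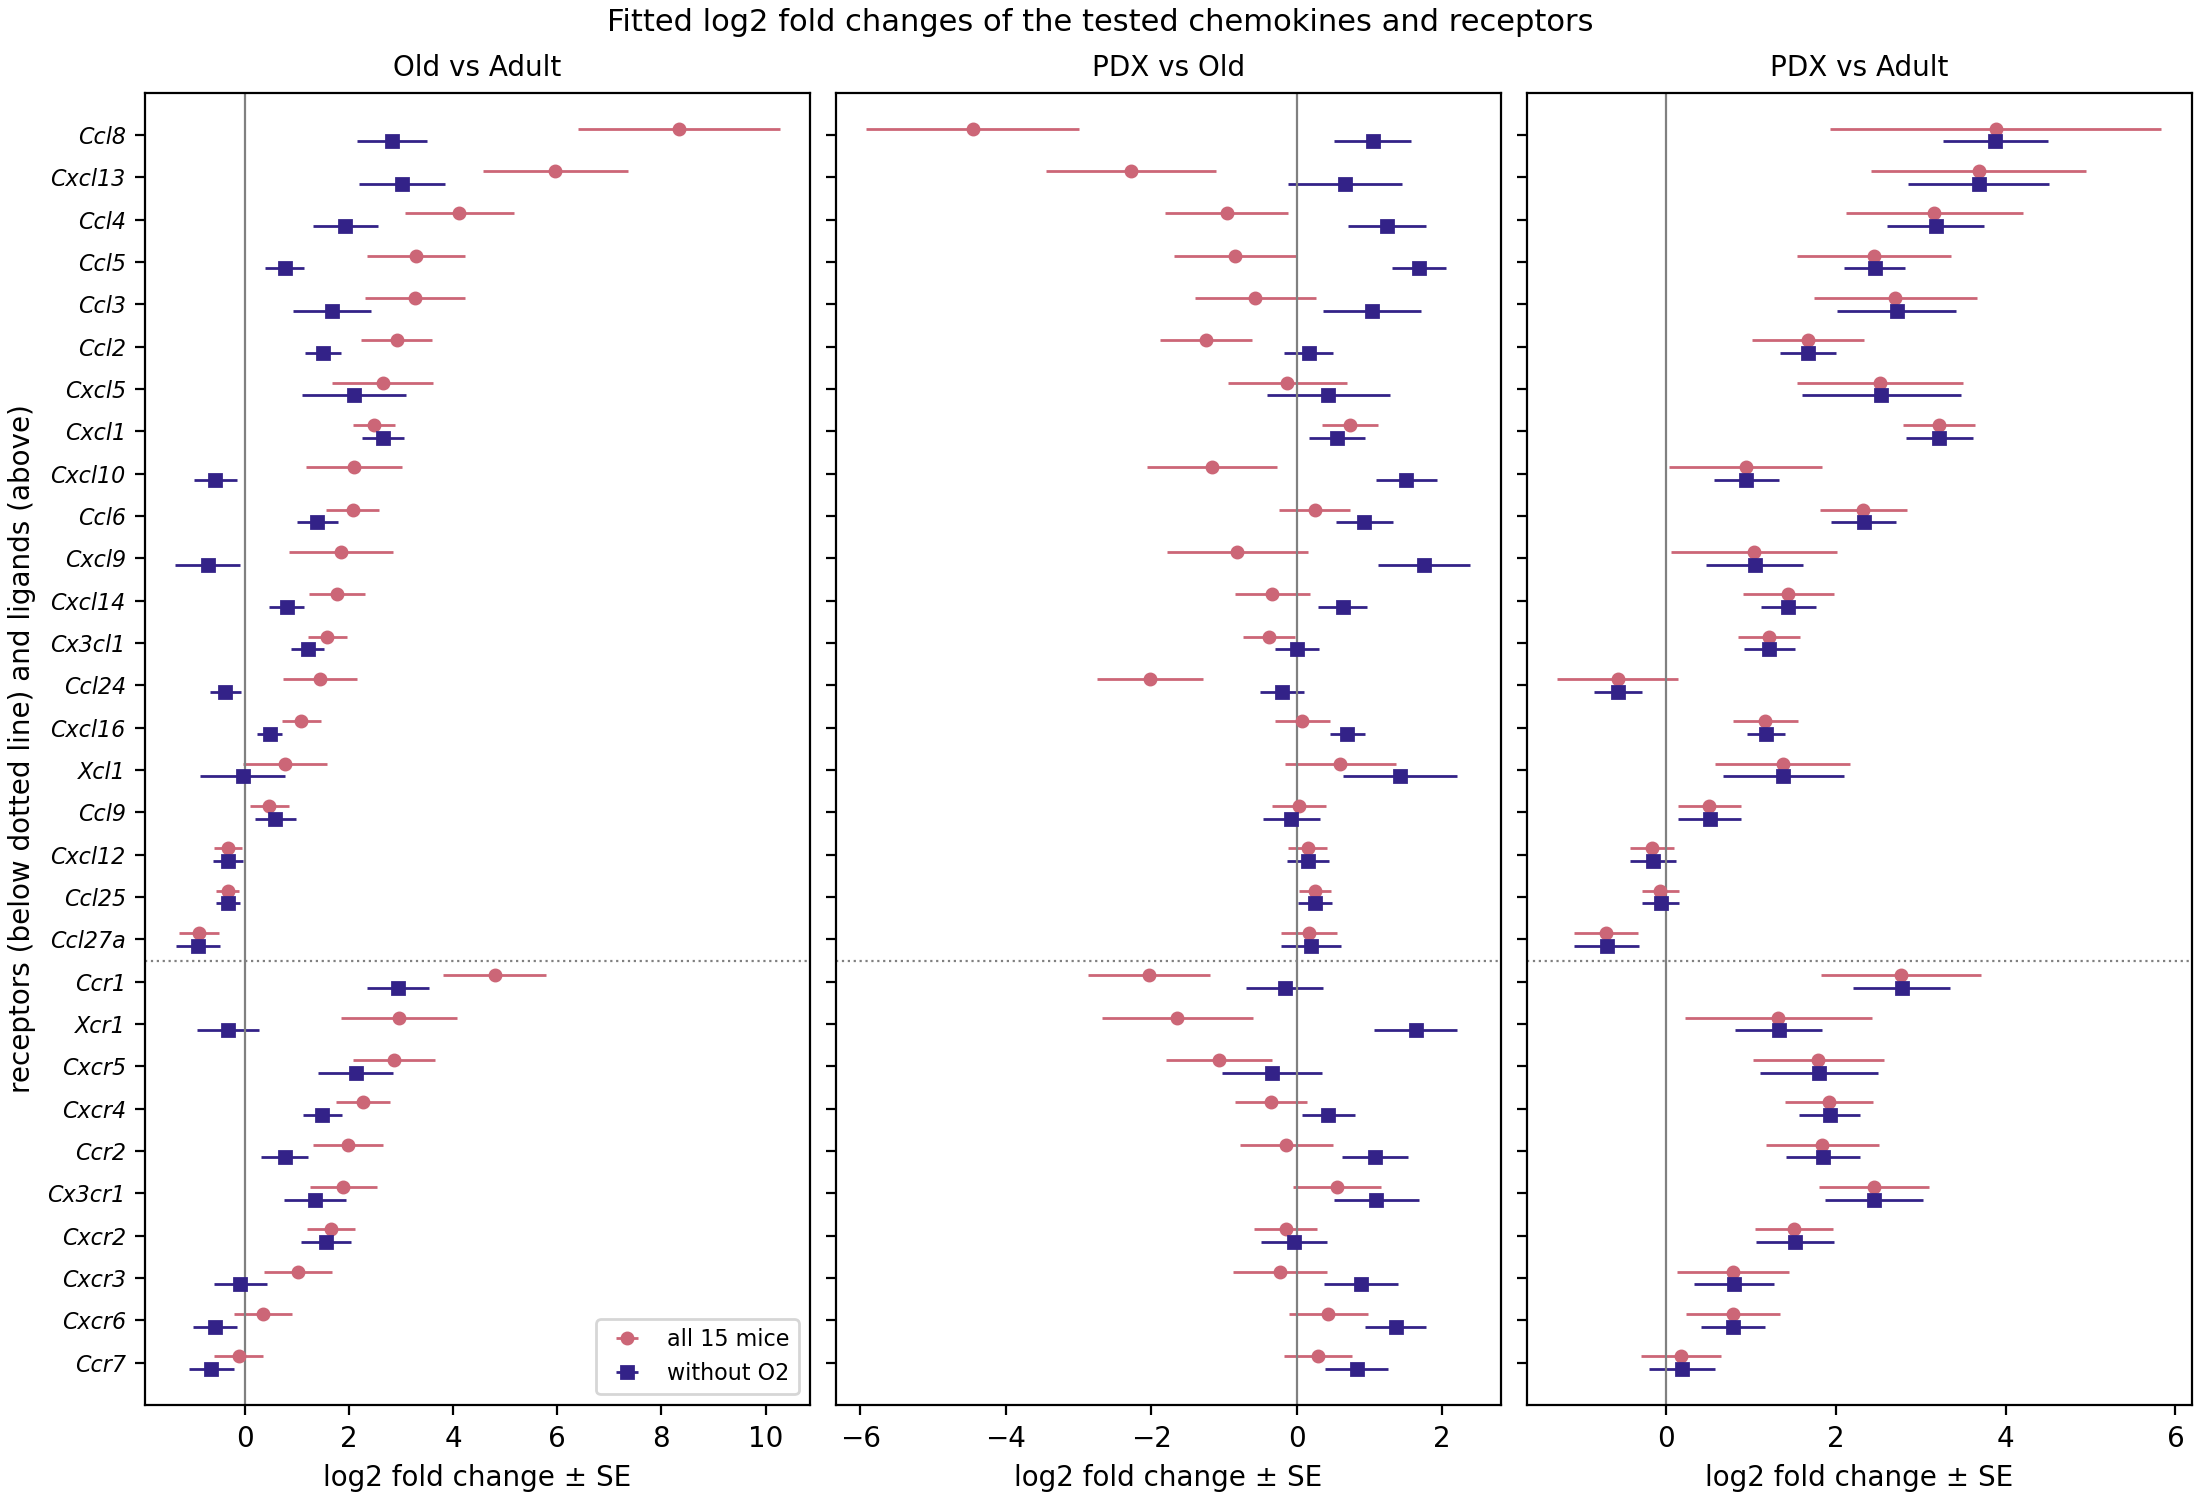
Fitted log2 fold change ± SE (x axis) of 30 of the 31 tested members (y axis) in the 3 comparisons, from all 15 mice (circles) and without O2 (squares). The SE was derived from the F test. In Old vs Adult most squares lie left of their circles, Cxcl1 stands at 2.49 and 2.66, and in PDX vs Old many members move from below 0 to above 0 without O2.

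Cxcl1 (ENSMUSG00000029380, chr5:90891241-90893115, GRCm38, gene annotation GENCODE M21) is the neutrophil attractant also known as KC. It had 11.9, 3.95, 7.71, 9.33 and 10.6 CPM in A1 to A5, 74.0, 25.1, 41.1, 66.3 and 37.9 CPM in O1 to O5 and 128, 113, 38.6, 39.9 and 85.7 CPM in P1 to P5. Every Old and every PDX mouse lay above every Adult mouse, and O2 was the lowest of the Old mice, not the highest. The mean was 8.70 ± 3.09 CPM in Adult and 48.9 ± 20.5 CPM in Old (SD, n = 5 each). The log2 fold change in Old vs Adult was 2.49 ± 0.41 (SE), a 5.61-fold difference (adjusted p = 0.00675 by the edgeR quasi-likelihood F test, Benjamini-Hochberg adjusted). The SE of each log2 fold change was derived from its F test and not estimated separately. Cxcl1 kept its call in all 21 alternative settings, where the log2 fold change lay between 2.30 and 2.80. Cxcl5, a neutrophil attractant encoded near it, was at or below 1.11 CPM in every mouse and was not called.

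Ccl6, a macrophage chemokine that binds Ccr1, had 10.4, 9.16, 12.7, 9.81 and 7.95 CPM in A1 to A5, 14.4, 106, 25.1, 15.4 and 50.1 CPM in O1 to O5 and 48.2, 79.2, 35.99, 66.8 and 19.9 CPM in P1 to P5. All Old mice exceeded all Adult mice, with O2 and O5 the highest of the group, and the PDX mice exceeded the Adult mice as well. In Old vs Adult its log2 fold change was 2.08 ± 0.51 (adjusted p = 0.0297 by the edgeR quasi-likelihood F test, Benjamini-Hochberg adjusted). Without O2 it was 1.40 ± 0.39 and the gene was not called. Its neighbor Ccl9 had 82.2, 90.6, 76.2, 77.9 and 86.1 CPM in A1 to A5, 223, 81.5, 93.7, 150.0 and 25.6 CPM in O1 to O5 and 142, 102, 106, 137 and 99.6 CPM in P1 to P5. O1 and O4 were high and O5 was the lowest of all mice, so the Old group spanned the Adult range, and Ccl9 was not called with all mice (log2 fold change 0.47 ± 0.37). Without O2 and O5 its log2 fold change was 0.92 ± 0.21 and it was called.

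Ccl2 (ENSMUSG00000035385, chr11:82035571-82037453), the main attractant of Ccr2-bearing monocytes, had 1.24, 0.810, 1.55, 0.403 and 1.03 CPM in A1 to A5, 1.66, 26.6, 2.98, 2.90 and 3.86 CPM in O1 to O5 and 2.05, 2.65, 3.85, 4.29 and 3.13 CPM in P1 to P5. Each Old mouse was above each Adult mouse, although O1 exceeded A3 by little, and O2 was far above the rest. Its log2 fold change was 2.92 ± 0.68 with all mice and 1.51 ± 0.34 without O2, and it was called both ways. Ccl8 (ENSMUSG00000009185, chr11:82115185-82116799), another monocyte chemokine, had 0.0281, 0, 0.137, 0 and 0.0861 CPM in A1 to A5, 0.127, 82.2, 0.415, 0.334 and 0.577 CPM in O1 to O5 and 0.473, 0.923, 1.07, 0.572 and 0.757 CPM in P1 to P5. O2 alone was high, with 2808 counts, while the other Old mice had 3 to 16 counts and the Adult mice 0 to 3. O1 lay within the Adult range. A count of 0, seen in A2 and A4, allows up to 0.106 and 0.110 CPM (3 counts, a floor that covers counting error only), and the Ccl8 ratio rests on 7 Adult counts in all. Its fitted log2 fold change was 8.33 ± 1.93 with all mice and 2.83 ± 0.67 without O2.

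Ccl5 attracts T cells and monocytes and binds Ccr1. It had 1.41, 0.951, 1.41, 1.06 and 0.803 CPM in A1 to A5, 2.04, 47.5, 2.15, 2.41 and 1.05 CPM in O1 to O5 and 3.71, 3.65, 12.3, 5.07 and 5.99 CPM in P1 to P5. O2 was far above all others, O5 lay within the Adult range, and the PDX mice lay above both the Adult mice and the Old mice other than O2. The log2 fold change in Old vs Adult was 3.29 ± 0.94 with all mice and 0.77 ± 0.37 without O2, when the call was lost. Ccl4, an attractant of T cells and monocytes, had 0.0281, 0.0705, 0.228, 0.0366 and 0.0861 CPM in A1 to A5, 0.170, 6.26, 0.528, 0.260 and 0.361 CPM in O1 to O5 and 0.473, 0.401, 1.64, 0.500 and 0.894 CPM in P1 to P5. O1 lay within the Adult range, the other Old mice were above it, and O2 was the highest. Its log2 fold change was 4.12 ± 1.04, and 1.93 ± 0.63 without O2, when it was no longer called. Ccl3, a ligand of Ccr1, ranged from 0.223 to 5.41 CPM in Old mice and was not called (log2 fold change 3.27 ± 0.97, and 1.68 ± 0.75 without O2).

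Cxcl13 (ENSMUSG00000023078, chr5:95956951-95961068), the B cell chemokine that binds Cxcr5, had 4.38, 2.11, 3.83, 2.38 and 2.98 CPM in A1 to A5, 4.37, 877, 10.1, 6.58 and 81.1 CPM in O1 to O5 and 15.5, 56.0, 95.6, 10.9 and 23.4 CPM in P1 to P5. O2 and O5 were high, O3 and O4 were above the Adult mice by less, and O1 lay just inside the Adult range, below A1. The log2 fold change in Old vs Adult was 5.96 ± 1.39 with all mice and 3.02 ± 0.83 without O2. Without O2 and O5 it was 1.18 ± 0.60, and in neither case was Cxcl13 called. Cx3cl1, a membrane-bound chemokine that is also shed, had 1.26, 1.30, 1.14, 1.21 and 0.459 CPM in A1 to A5, 2.51, 6.26, 2.15, 2.30 and 2.92 CPM in O1 to O5 and 2.25, 1.89, 4.16, 1.86 and 2.24 CPM in P1 to P5. All Old and PDX mice were above all Adult mice, A5 was the lowest mouse and O2 the highest. Its log2 fold change was 1.59 ± 0.37 with all mice and 1.21 ± 0.31 without O2, called in both but not without O2 and O5.

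The interferon-induced ligands of Cxcr3 were high in O2 alone among the Old mice. Cxcl9 had 13.5, 9.48, 22.5, 12.0 and 9.56 CPM in A1 to A5, 9.56, 209, 13.6, 8.95 and 0.397 CPM in O1 to O5 and 14.3, 19.1, 54.7, 30.0 and 19.1 CPM in P1 to P5. O5 was the lowest mouse of all and the remaining Old mice lay among or just below the Adult mice. Cxcl10 had 4.19, 2.54, 4.92, 2.23 and 3.27 CPM in A1 to A5, 2.42, 64.0, 3.17, 2.23 and 1.41 CPM in O1 to O5 and 4.73, 3.33, 14.7, 4.57 and 5.44 CPM in P1 to P5, again with O2 high and the other Old mice within or below the Adult range. Neither was called, and both signs turned without O2, from 1.85 ± 1.00 to −0.71 ± 0.62 for Cxcl9 and from 2.10 ± 0.92 to −0.56 ± 0.41 for Cxcl10. Ccl24, an eosinophil attractant made by macrophages, had 3.34, 2.54, 3.74, 2.12 and 2.98 CPM in A1 to A5, 1.74, 31.0, 3.20, 2.08 and 2.02 CPM in O1 to O5 and 2.76, 2.09, 0.820, 2.14 and 2.10 CPM in P1 to P5. Among the Old mice only O2 was above the Adult range, P3 was the lowest mouse, and the log2 fold change turned from 1.45 ± 0.71 to −0.37 ± 0.30 without it.

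Among the remaining ligands, Cxcl12 had 386, 364, 346, 368 and 416 CPM in A1 to A5, 356, 310.2, 327, 419.9 and 98.5 CPM in O1 to O5 and 317, 319, 344, 311 and 382 CPM in P1 to P5. O5 was lowest by far, O2 and O3 lay below the Adult range, O1 within it and O4 just above it, and Cxcl12 was not called (log2 fold change −0.31 ± 0.26). Cxcl16, the ligand of Cxcr6, ranged from 9.48 to 14.5 CPM in Adult and from 12.8 to 57.0 CPM in Old mice (log2 fold change 1.09 ± 0.38, and 0.48 ± 0.24 without O2, not called). Cxcl14 separated the groups, at 1.24 to 2.61 CPM in Adult and 2.71 to 21.2 CPM in Old mice, but missed the threshold (log2 fold change 1.77 ± 0.54, and 0.81 ± 0.33 without O2, with all mice adjusted p = 0.0585, edgeR quasi-likelihood F test, Benjamini-Hochberg adjusted). Ccl27a, a chemokine of skin-homing T cells, was the member whose Old mice all lay below the Adult mice, at 0.505 to 4.11 against 4.32 to 5.87 CPM (log2 fold change −0.88 ± 0.38, not called). Ccl25, which acts on Ccr9 of thymocytes and gut T cells, had a log2 fold change of −0.33 ± 0.22 and was not called either.

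**Figure D3:**
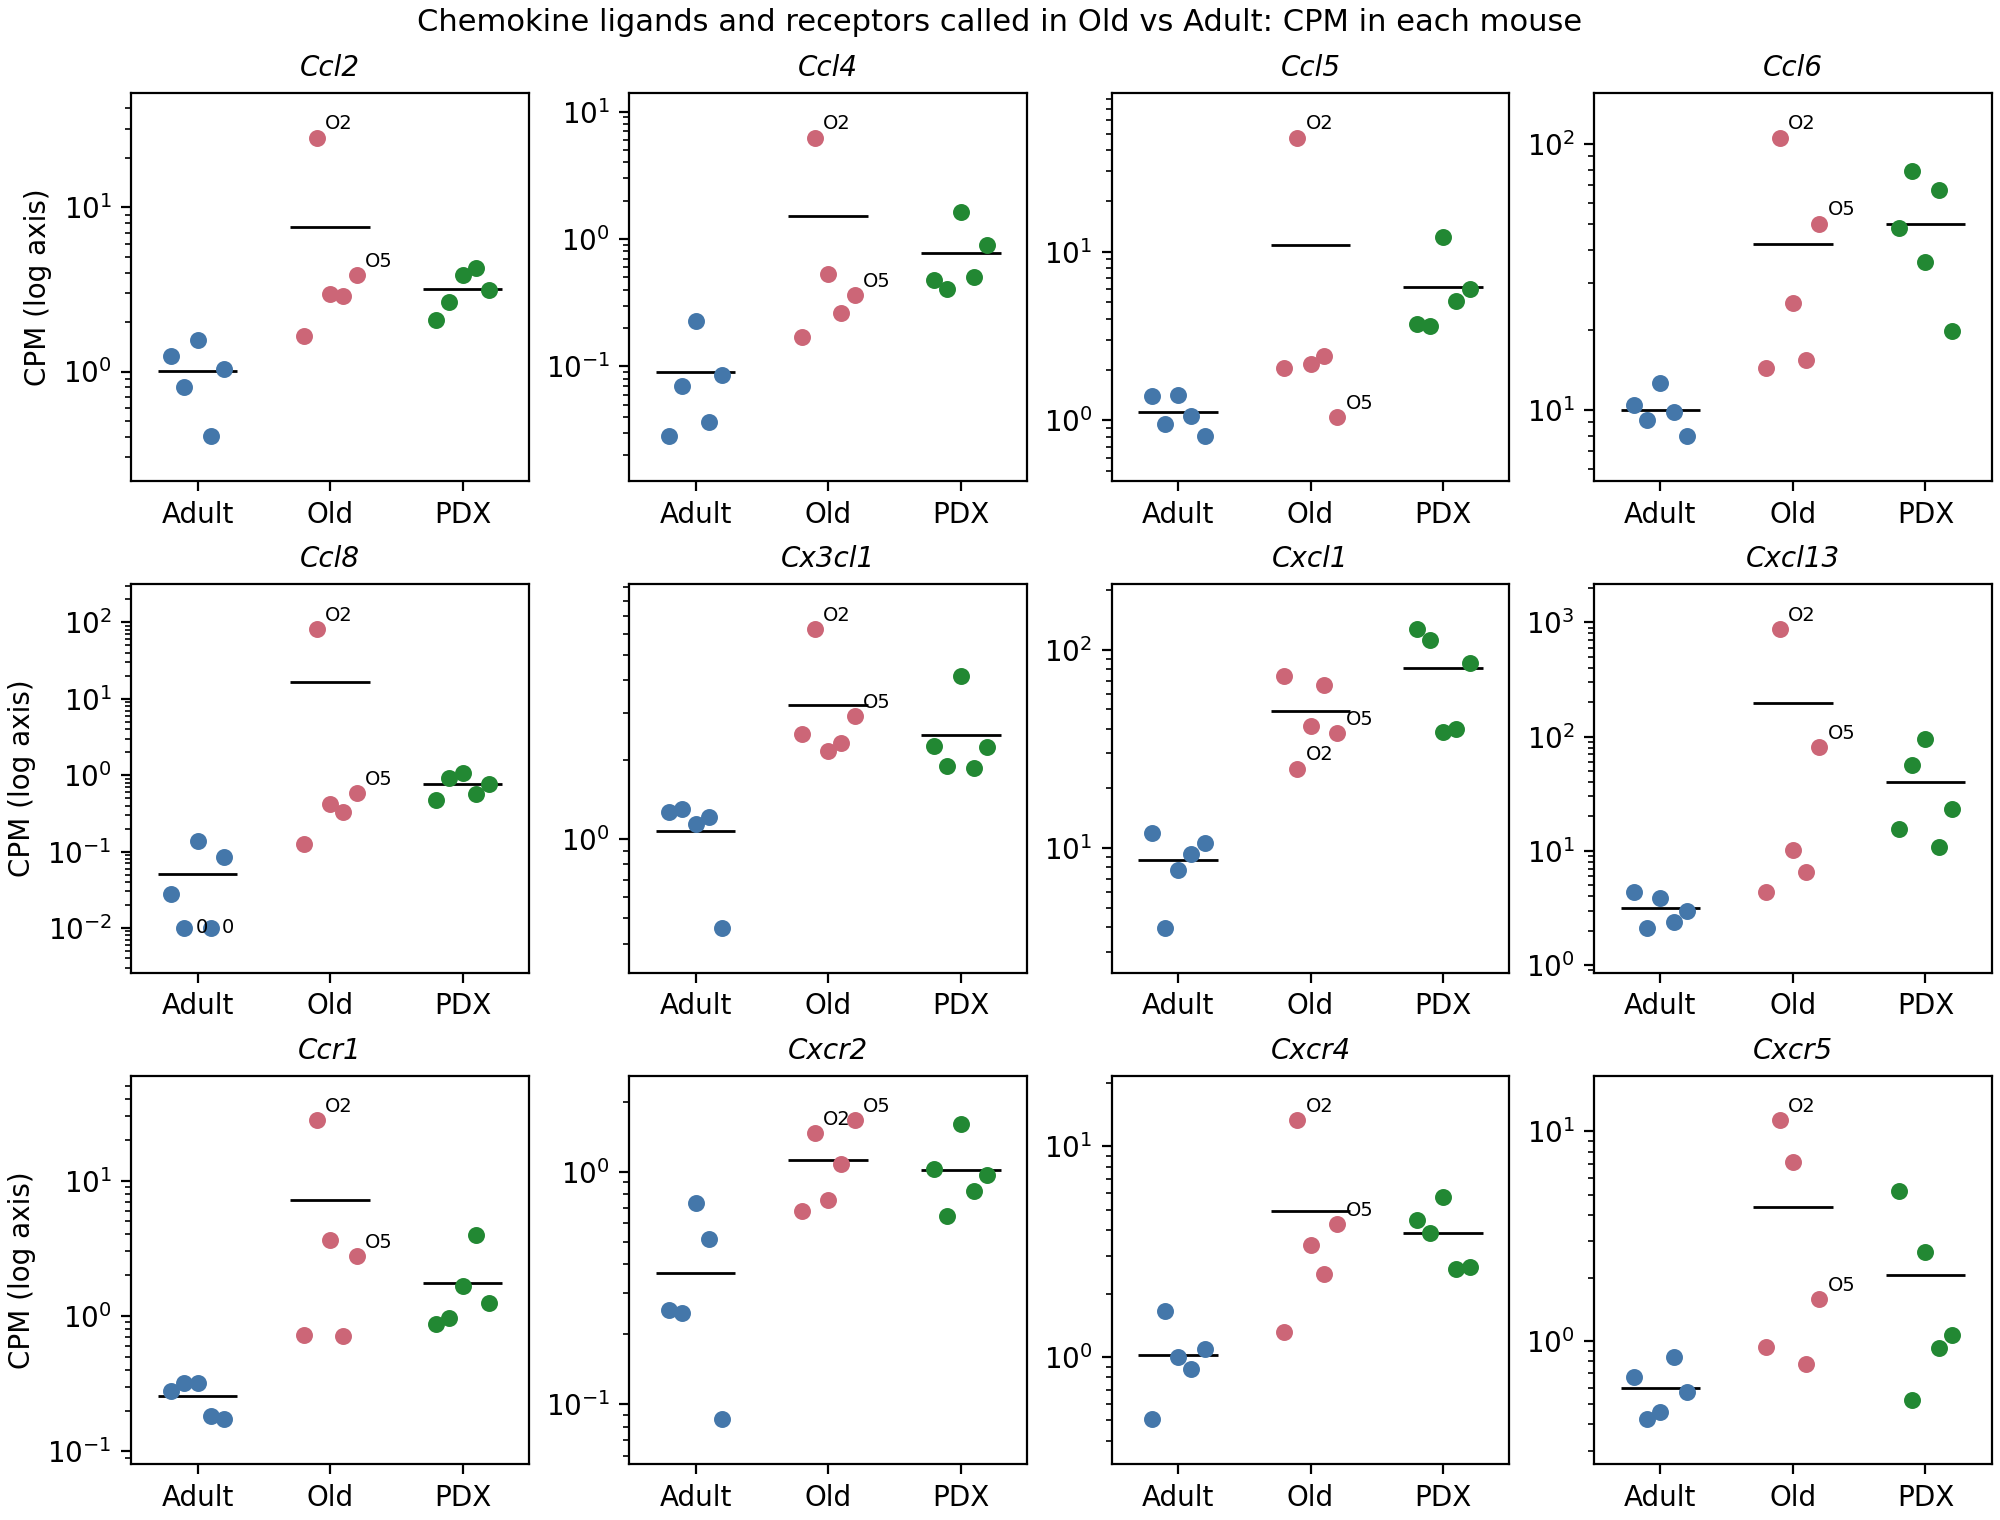
CPM on a log axis of the 12 members called in Old vs Adult, in each mouse (points, 5 per group) with the group mean (lines); O2 and O5 are named, and points marked 0 have no counts and are drawn at 0.01 CPM. O2 is the highest mouse in 10 panels, and the lowest Old mouse for Cxcl1.

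Ccr1 (ENSMUSG00000025804, chr9:123962124-123968692) is the receptor of Ccl3, Ccl5, Ccl6 and Ccl9 on neutrophils, monocytes and macrophages. It had 0.281, 0.317, 0.319, 0.183 and 0.172 CPM in A1 to A5, 0.722, 27.8, 3.62, 0.706 and 2.78 CPM in O1 to O5 and 0.868, 0.963, 1.67, 3.97 and 1.24 CPM in P1 to P5. All Old and all PDX mice were above all Adult mice, and O2 was the highest. The log2 fold change in Old vs Adult was 4.80 ± 0.98 (adjusted p = 0.0181 by the edgeR quasi-likelihood F test, Benjamini-Hochberg adjusted), and 2.94 ± 0.59 without O2, still called. Ccr2, the Ccl2 receptor of inflammatory monocytes, had 1.41, 0.740, 2.05, 1.13 and 1.03 CPM in A1 to A5, 2.21, 16.4, 4.18, 1.75 and 0.469 CPM in O1 to O5 and 3.16, 4.78, 5.08, 6.11 and 3.61 CPM in P1 to P5. O5 lay below every Adult mouse and O4 inside the Adult range, so the groups overlapped. Ccr2 was not called (log2 fold change 1.98 ± 0.67, and 0.77 ± 0.45 without O2).

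Cxcr2, the neutrophil receptor of Cxcl1, had 0.253, 0.247, 0.730, 0.512 and 0.0861 CPM in A1 to A5, 0.679, 1.46, 0.754, 1.08 and 1.66 CPM in O1 to O5 and 1.03, 0.642, 1.61, 0.822 and 0.963 CPM in P1 to P5. O5 was the highest mouse and O1 lay below A3, so the groups overlapped slightly. For Cxcr2 the log2 fold change was 1.66 ± 0.46 (adjusted p = 0.0447 by the edgeR quasi-likelihood F test, Benjamini-Hochberg adjusted), and without O2 it was 1.56 ± 0.48 and no longer called. Cxcr4, the Cxcl12 receptor, had 0.506, 1.66, 1.00, 0.878 and 1.09 CPM in A1 to A5, 1.32, 13.3, 3.39, 2.49 and 4.26 CPM in O1 to O5 and 4.46, 3.89, 5.74, 2.61 and 2.68 CPM in P1 to P5. O1 was the 1 Old mouse inside the Adult range, and the log2 fold change was 2.27 ± 0.53 with all mice and 1.49 ± 0.37 without O2, called in both, but not without O2 and O5. Cxcr5, the Cxcl13 receptor of B cells, had 0.674, 0.423, 0.456, 0.842 and 0.574 CPM in A1 to A5, 0.934, 11.3, 7.16, 0.780 and 1.59 CPM in O1 to O5 and 5.21, 0.522, 2.65, 0.929 and 1.07 CPM in P1 to P5. O2, O3 and P1 were high and O4 lay in the Adult range. Cxcr5 had a log2 fold change of 2.86 ± 0.79 with all mice and 2.13 ± 0.72 without O2, when it was not called.

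Cx3cr1, the Cx3cl1 receptor of patrolling monocytes and tissue macrophages, had 0.871, 0.423, 0.593, 0.915 and 1.29 CPM in A1 to A5, 2.97, 6.93, 2.71, 2.67 and 0.0721 CPM in O1 to O5 and 4.89, 5.82, 5.36, 4.04 and 2.51 CPM in P1 to P5. O5 was nearly without it, with 2 counts, while the other Old mice and all PDX mice were above the Adult mice. It was not called with all mice (log2 fold change 1.90 ± 0.64) but was without O2 and O5 (1.76 ± 0.32). Cxcr3, the Cxcl9 and Cxcl10 receptor of activated T cells, and Xcr1, which marks cross-presenting dendritic cells, reached 6.85 and 9.95 CPM in O2. Both lost their direction without it, at −0.08 ± 0.51 for Cxcr3 and −0.31 ± 0.59 for Xcr1. Also tested were Ccr7, which guides dendritic cells and T cells to lymph nodes, with at most 1.80 CPM (P3), and Cxcr6, which holds T and NKT cells in liver sinusoids, with at most 4.07 CPM (O2). Neither was called.

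Among leukocyte markers, edgeR called some of neutrophils, B cells, monocytes, lipid-associated macrophages and plasma cells higher in Old vs Adult. It called none of T cells, Kupffer cells, NK cells or dendritic cells, and not Ptprc. The part of leukocytes in the results was not tested. Of the 9 neutrophil markers, 8 were tested and 7 were called higher in Old vs Adult, 5 of them also without O2. The summed neutrophil level was 4.33, 3.77, 6.29, 4.87 and 2.70 CPM in A1 to A5, 10.5, 238, 14.8, 10.6 and 46.0 CPM in O1 to O5 and 15.3, 75.4, 28.4, 43.9 and 21.8 CPM in P1 to P5, with S100a9 the most abundant. O2 and P2 were highest, and all Old and PDX mice exceeded all Adult mice. Ly6g, the defining surface antigen of mouse neutrophils, had 0 counts in 10 of the 15 mice, Camp in 2 and Elane in 1. In PDX vs Adult, 2 neutrophil markers were called, Mpo and Elane, and 7 without O2.

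Of the 5 B cell markers, 3 were called higher in Old vs Adult and 0 without O2. Ms4a1 and Cd79b were called without O2 and O5. With all mice 5 had an unadjusted p under 0.05 and DESeq2 called 5. The summed B cell level was 8.43, 5.35, 9.16, 8.78 and 7.92 CPM in A1 to A5, 14.7, 102, 86.1, 9.03 and 9.45 CPM in O1 to O5 and 56.8, 17.6, 37.2, 15.8 and 24.2 CPM in P1 to P5, and no marker was at 0 in any mouse. O2, O3 and P1 were the highest for these markers, and the same mice were the highest for Cxcr5. In PDX vs Adult 0 B cell markers were called by edgeR, 5 had an unadjusted p under 0.05 and DESeq2 called 3. There edgeR called Cd79b without O2, and 5 without O2 and O5.

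Of the 5 monocyte markers, 3 were called higher in Old vs Adult (Chil3, F13a1 and Vcan), and without O2 2 were (Chil3 and Vcan). Their summed level was 13.7, 8.07, 13.3, 8.45 and 8.95 CPM in A1 to A5, 13.8, 111, 22.6, 14.1 and 38.3 CPM in O1 to O5 and 25.9, 54.9, 29.0, 43.4 and 21.3 CPM in P1 to P5, with Plac8 the most abundant and Vcan at 0 in 1 mouse. O2 was highest, followed by P2, P4 and O5. In PDX vs Adult 1 was called (Chil3), and all 5 without O2. Of the 5 markers of lipid-associated macrophages, 4 were called higher in Old vs Adult with all mice and 4 without O2, and 2 in PDX vs Adult. Their summed level was 63.9, 62.4, 54.9, 54.2 and 62.1 CPM in A1 to A5, 143, 206, 91.7, 96.0 and 222 CPM in O1 to O5 and 143, 130.0, 162, 105 and 95.0 CPM in P1 to P5, with Spp1 the most abundant and none at 0. O5 and O2 were highest, and no Adult mouse reached the level of any Old or PDX mouse.

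Kupffer cell markers had 0 of 5 called in Old vs Adult by edgeR, 1 at an unadjusted p under 0.05 and 0 by DESeq2. Their summed level was 549, 358, 524, 411 and 494 CPM in A1 to A5, 549.6, 2418, 746, 438 and 237 CPM in O1 to O5 and 743, 1134, 1253, 1206 and 615 CPM in P1 to P5, with Cd5l the most abundant and none at 0. O2 was the highest mouse, O5 the lowest, and every PDX mouse lay above every Adult mouse. In PDX vs Adult, edgeR called 0 of them, 2 had an unadjusted p under 0.05, DESeq2 called 2, and edgeR called 2 without O2. T cell markers had 0 of 6 called in Old vs Adult by edgeR, 4 at an unadjusted p under 0.05 and 0 by DESeq2. Their summed level was 5.51, 5.53, 8.25, 4.35 and 5.51 CPM in A1 to A5, 5.95, 176, 7.80, 5.76 and 2.85 CPM in O1 to O5 and 9.15, 10.7, 27.7, 10.7 and 11.7 CPM in P1 to P5, with Cd4 the most abundant and none at 0. O2 was far above the rest, followed by P3, and the same pair was the highest for Cxcl9, Cxcl10 and Ccl5. In PDX vs Adult, edgeR called 0 T cell markers with all mice, Cd8a without O2, and 5 of the 6 without O2 and O5.

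Of the stellate cell markers, 2 of 5 were called higher in Old vs Adult, Col1a1 and Des, and 0 without O2 (4 at an unadjusted p under 0.05 with all mice). DESeq2 called the same 2 higher and Lrat lower. Between PDX and Adult edgeR called 0 of them, 2 had an unadjusted p under 0.05, and DESeq2 again called Lrat lower. Their summed level was 288, 302, 317, 298 and 298 CPM in A1 to A5, 298, 446, 361, 296 and 603 CPM in O1 to O5 and 296, 282, 469.6, 281 and 297 CPM in P1 to P5, with Dcn the most abundant and none at 0, and O5 was the highest mouse. Of 4 plasma cell markers, 1 was called higher in Old vs Adult (Mzb1) and 1 in PDX vs Adult (Jchain). In Old vs Adult edgeR called 0 genes of the lists for hepatocytes, dendritic cells, NK cells, sinusoidal endothelium, cholangiocytes, platelets and erythroid cells, and not Ptprc. The summed CPM was highest in O2 for dendritic cells (23.3, at most 14.1 elsewhere), NK cells (18.1, at most 5.87) and erythroid cells (1042, at most 477), and in O5 for cholangiocytes (39.4, at most 18.1). At an unadjusted p under 0.05 these lists had 2, 1, 2, 1, 4, 1 and 0 genes, and DESeq2 called 2, 1, 0, 0, 2, 0 and 0. Ptprc had an unadjusted p under 0.05 and was called by DESeq2. In Old vs Adult edgeR called 0 of these genes without O2, and Apoa1 and Flt3 higher without O2 and O5. These lists also had 0 genes called by edgeR in PDX vs Adult, with 1, 1, 1, 0, 1, 0 and 0 at an unadjusted p under 0.05 and 1, 0, 0, 0, 1, 0 and 0 by DESeq2. Without O2, edgeR called Apoa1, the NK cell genes Eomes and Prf1, and Ptprc higher in PDX vs Adult. Leaving out O5 as well added Flt3 and Sox9 as higher and Ttr and Stab2 as lower.

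Between PDX and Old livers, 0 of the 31 tested members and 0.0% of all 15808 tested genes were called at an adjusted p under 0.25 (edgeR quasi-likelihood F test, Benjamini-Hochberg adjusted). At an unadjusted p under 0.05 there were 834 genes (5.28%), among them 3 members, and DESeq2 called 1 gene (0.00344%) and 0 members. No member separated the groups without overlap, against 0.342% of all tested genes in either direction and 0.145% in the higher direction. The median log2 fold change was −0.34 over the members and −0.07 over all tested genes, and 20 of the 31 were lower in PDX. This balance depended on O2 and on the model. Without O2, 26 of the 31 members had a higher level in PDX than in Old, the median was 0.69, and 17 members had changed sign, while edgeR still called none and 10 had an unadjusted p under 0.05 (11.2% of all genes tested then). With O5 left out as well the median was 0.75, 28 of 33 members were higher in PDX, 15 members had an unadjusted p under 0.05 (9.03% of all genes) and edgeR called 0. With all mice and the replicate number as a block, 22 of the 31 were higher in PDX, 11 had changed sign and the median was 0.20.

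The 3 members with the smallest unadjusted p in this comparison were Ccl8, Ccl24 and Ccr1, whose per-mouse values stand above. Ccl8 had a log2 fold change of −4.45 ± 1.46, and it was 1.05 ± 0.53 without O2. The value for Ccl24 was −2.02 ± 0.72, which became −0.20 ± 0.30 without O2. For Ccr1 it was −2.03 ± 0.84, and −0.17 ± 0.53 without O2. O2 exceeded all PDX mice in each of the 3. For Ccl8 the other Old mice lay below all PDX mice, except O5 within their range. For Ccl24 O3 also lay above the PDX mice, and for Ccr1 O1 and O4 lay below them. Cxcl1 and Ccl6 had positive differences in PDX vs Old, 0.73 ± 0.39 and 0.25 ± 0.49, and the mice of both groups overlapped. For Cxcl13 the log2 fold change was −2.28 ± 1.17 with all mice, 0.66 ± 0.79 without O2 and 2.52 ± 0.63 without O2 and O5. Ccl5 went from −0.85 ± 0.85 to 1.68 ± 0.37 without O2, and P1 to P5 all exceeded the 4 other Old mice. The Old mice enter both this comparison and Old vs Adult, and each enters them with opposite sign.

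Between PDX and Adult livers, 2 of the 31 tested members were called (6.45%), Cxcl1 and Ccl6, both higher, against 2.66% of all 15808 tested genes and 1.76% called higher. Cxcl1 had a mean of 80.9 ± 40.8 CPM in PDX mice (SD, n = 5) and a log2 fold change of 3.21 ± 0.42, a 9.27-fold difference (adjusted p = 0.00116 by the edgeR quasi-likelihood F test, Benjamini-Hochberg adjusted). Ccl6 had 50.0 ± 23.7 CPM and a log2 fold change of 2.32 ± 0.51 (adjusted p = 0.0261 by the edgeR quasi-likelihood F test, Benjamini-Hochberg adjusted). Cxcl1 kept its call whichever mouse was left out, and Ccl6 lost it without any of the Adult mice or without P1, P2 or P4. For 15 of the 31 members (48.4%) all PDX mice lay above all Adult mice, and for 0 below, against 19.9% of all tested genes in either direction and 10.5% in the higher direction. The median log2 fold change was 1.43 over the members and −0.01 over all tested genes, and 17 members (54.8%) had an unadjusted p under 0.05, against 20.6% of all tested genes. The same Adult mice serve Old vs Adult.

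Among the 15 were the ligands Ccl2, Ccl4, Ccl5, Ccl6, Ccl8, Ccl9, Cx3cl1, Cxcl1, Cxcl13 and Cxcl16 and the receptors Ccr1, Ccr2, Cx3cr1 and Cxcr4. Cx3cr1 had the largest difference among these receptors after Ccr1, with a log2 fold change of 2.45 ± 0.64 in PDX vs Adult, and missed the threshold (adjusted p = 0.0570, edgeR quasi-likelihood F test, Benjamini-Hochberg adjusted). Cxcr4 was next with 1.92 ± 0.52. Cxcl16 had 11.1, 9.72, 11.2, 9.48 and 14.5 CPM in A1 to A5, 13.5, 57.0, 20.1, 15.7 and 12.8 CPM in O1 to O5 and 18.7, 25.9, 42.4, 20.1 and 18.6 CPM in P1 to P5, with every PDX mouse above every Adult mouse, P3 the highest of them, and a log2 fold change of 1.17 ± 0.38.

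The number of members called in PDX vs Adult depended on mice outside the comparison. Without O2, 16 members were called (51.6%), against 11.1% of all genes tested then. Leaving out O5 too, it was 21 of 33, against 24.6% of all genes, and in a fit of only the 10 Adult and PDX mice it was 22 of 29, against 29.6%. In each of these last fits 1 of the called members, Ccl27a, was lower in PDX. DESeq2 called 11 members, against 4.82% of all genes, and with the replicate block edgeR called 3, against 2.0%. The medians over the members were 1.43 with all mice, 1.44 without O2 and 1.45 without O2 and O5. For Ccl5 the log2 fold change was 2.45 ± 0.91 with all mice and 2.45 ± 0.36 without O2. DESeq2 called 16 of 41 tested members in Old vs Adult (39.0%), against 9.09% of all genes. Of the 16, 9 were among the 12 named above, and the others were Ccl3, Ccr2, Cx3cr1, Cxcl2, Cxcl5, Cxcl14 and Cxcl16. DESeq2 gave no p for Ccl4, Ccl5 or Ccl8, whose counts it set aside as outliers.

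Many members are encoded side by side, and neighbors on a chromosome did not all behave alike. On chromosome 9 the receptor genes Cxcr6, Xcr1, Ccr1, Ccr3 and Ccr2 were all highest in O2, and their neighbor Ccr9 was not. On chromosome 11, chr11:82035571-82305690 holds Ccl2, Ccl7, Ccl11, Ccl12, Ccl8 and Ccl1, of which 4 were highest in O2. Ccl11, the eotaxin, also named after its values were seen, was instead highest in O5 (1.98 CPM) and Ccl1 was at or near 0. A further run at chr11:83525778-83664683 holds Ccl5, Ccl9, Ccl6, Ccl3 and Ccl4, where all but Ccl9 were highest in O2. At chr5:90759360-90905938 lie the neutrophil attractants Cxcl5, Cxcl3, Cxcl1 and Cxcl2 together with Cxcl15. Cxcl2 and Cxcl3 are named after their values were seen. Cxcl2 had 0.0562, 0, 0.319, 0.146 and 0.201 CPM in A1 to A5, 0.170, 1.61, 0.151, 0.186 and 2.67 CPM in O1 to O5 and 0.276, 0.281, 0.473, 0.143 and 0.206 CPM in P1 to P5, with O5 and O2 highest. Cxcl3 had 0 counts in every mouse except O5 (0.253 CPM).

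Promoters are shown for these neighbors because Cxcl1, Cxcl2 and Cxcl3 carry the same letters before their starts while only Cxcl1 was abundant, and for Cxcl10, which was highest in O2. Of the 57 member symbols, 41 had a window in the RefSeq promoter table (GRCm38.p6, 250 bases before to 50 after the start). The windows were searched on both strands for the NF-κB consensus, a motif of 10 letters, and for GAAA, any 2 bases and GAAA again, the core of interferon response elements. The NF-κB consensus was found in 8.46% of all 32851 windows and in 11 of the 48 windows of members (22.9%), each of a different gene, Ccl1, Ccl9, Ccl20, Ccl27a, Ccr1, Ccr3, Ccr6, Cxcl1, Cxcl2, Cxcl3 and Cxcl10. The match shared by Cxcl1, Cxcl2 and Cxcl3 was GGGAATTTCC. As these letters were read from those 3 windows, all 3 hold them by choice, and among all windows 29 (0.0883%) did, including that of Ccr3. The interferon motif was found in 3.44% of all windows and in 3 of the 48 (6.25%), those of Ccl19, Cxcl10 and Cxcl14. Capitals mark the NF-κB consensus and the interferon motif, which do not overlap each other. In Cxcl1, Cxcl2 and Cxcl3 the consensus matched both strands 1 base apart, so the capitals run over 11 bases and begin 71, 97 and 73 bases before the start. All lie on chromosome 5, Cxcl1 at chr5:90890995-90891294, Cxcl2 at chr5:90903649-90903948 and Cxcl3 at chr5:90785851-90786150 on the plus strand and Cxcl10 at chr5:92348840-92349139 on the minus strand, each written 5′ to 3′ in the direction of its gene. A match describes the letters only.
Cxcl1: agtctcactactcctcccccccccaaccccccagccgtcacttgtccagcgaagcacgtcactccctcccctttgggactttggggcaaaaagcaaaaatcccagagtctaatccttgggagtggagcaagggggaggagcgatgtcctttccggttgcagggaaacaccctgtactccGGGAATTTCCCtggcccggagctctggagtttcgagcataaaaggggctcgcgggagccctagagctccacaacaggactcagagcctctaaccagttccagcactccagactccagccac
Cxcl2: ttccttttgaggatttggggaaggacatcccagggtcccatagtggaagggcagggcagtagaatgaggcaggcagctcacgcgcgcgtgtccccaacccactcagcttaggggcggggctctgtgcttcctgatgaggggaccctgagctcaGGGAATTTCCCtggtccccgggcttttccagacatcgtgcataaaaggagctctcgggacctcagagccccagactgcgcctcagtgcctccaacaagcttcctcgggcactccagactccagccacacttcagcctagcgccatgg
Cxcl3: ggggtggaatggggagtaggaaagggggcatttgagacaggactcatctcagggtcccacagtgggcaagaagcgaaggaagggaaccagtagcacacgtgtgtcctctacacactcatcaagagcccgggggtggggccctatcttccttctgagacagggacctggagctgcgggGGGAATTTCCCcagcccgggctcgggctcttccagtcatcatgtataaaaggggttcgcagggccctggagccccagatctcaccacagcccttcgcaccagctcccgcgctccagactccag
Cxcl10: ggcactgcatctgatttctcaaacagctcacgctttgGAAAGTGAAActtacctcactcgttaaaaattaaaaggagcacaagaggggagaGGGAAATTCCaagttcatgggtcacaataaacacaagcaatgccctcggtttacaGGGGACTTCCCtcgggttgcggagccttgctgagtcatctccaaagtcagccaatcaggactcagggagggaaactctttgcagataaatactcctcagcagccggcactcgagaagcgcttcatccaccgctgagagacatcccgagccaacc

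Genes that act with the chemokines were followed as 4 lists. Of the 7 atypical receptors and platelet chemokines, 2 were called higher in Old vs Adult, and Ackr2 alone without O2. For PDX vs Adult, edgeR called 0 of them with all mice, 3 without O2 and 5 without O2 and O5, all higher. Ackr2, a receptor that clears inflammatory chemokines without signaling through G proteins, had 2.11, 1.51, 2.33, 2.16 and 1.72 CPM in A1 to A5, 3.06, 6.26, 6.63, 3.16 and 7.72 CPM in O1 to O5 and 3.39, 3.81, 4.10, 3.07 and 3.34 CPM in P1 to P5. Its Old mice were all above the Adult mice, with a log2 fold change of 1.45 ± 0.26. Pf4, a chemokine of platelets and megakaryocytes, had 0.478, 0.458, 0.638, 0.586 and 0.488 CPM in A1 to A5, 2.12, 71.2, 0.980, 0.743 and 5.34 CPM in O1 to O5 and 0.986, 2.65, 2.59, 6.07 and 0.963 CPM in P1 to P5. O2 stood far above the rest, and the log2 fold change was 4.93 ± 1.18 with all mice and 2.12 ± 0.61 without O2. The summed CPM of the 4 megakaryocyte and platelet markers was 28.7 in O2 and at most 12.0 in the others, and their part was not tested.

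Of 22 genes of signaling below the receptors, 21 were tested and 3 were called higher by edgeR in Old vs Adult, with a list median log2 fold change of 1.35, and without O2 Grk3 and Rgs1 were. At an unadjusted p under 0.05 there were 14, and DESeq2 called 12. For PDX vs Adult edgeR called 0 of them, 11 had an unadjusted p under 0.05, DESeq2 called 5, and edgeR called 12 without O2 and 17 without O2 and O5. The 3 called in Old vs Adult were Grk3, a kinase that desensitizes receptors (log2 fold change 1.98 ± 0.46, and 1.34 ± 0.33 without O2), Rgs1, which shortens G protein signaling in lymphocytes (2.94 ± 0.65 and 2.24 ± 0.55), and Pik3r5, a subunit of phosphoinositide 3-kinase gamma (2.52 ± 0.69 and 1.34 ± 0.48). Of 8 proteases that shed or trim chemokines, Mmp8 (3.37 ± 0.90) and Mmp12 (3.69 ± 0.65) were called higher in Old vs Adult, and Mmp12 also in PDX vs Adult (3.81 ± 0.65). Without O2, Mmp12 kept its call in Old vs Adult and Mmp8 did not (2.10 ± 0.71), and both were called higher in PDX vs Adult. Mmp12, the macrophage elastase, had 0.225, 0.176, 0.684, 0.512 and 0.344 CPM in A1 to A5, 3.31, 1.93, 6.56, 3.79 and 9.13 CPM in O1 to O5 and 12.0, 1.85, 8.52, 2.00 and 2.51 CPM in P1 to P5. As for Cxcl1, O2 was the lowest of the Old mice, and every Old and PDX mouse lay above every Adult mouse. Of 19 inducers, 15 were tested, and Relb (1.80 ± 0.49) and Nfkbiz (1.22 ± 0.25) were called higher in Old vs Adult. Nfkbiz, a nuclear regulator of NF-κB target genes, was also called in PDX vs Adult (1.26 ± 0.25), and in Old vs Adult it alone kept its call without O2, when Relb was at 1.42 ± 0.46. The cytokines Il6, Ifng and Lta were too low to be tested and Il17a had 0 counts in all mice. Tnf (1.82 ± 0.81, and 0.13 ± 0.56 without O2) and Il1b were not called by edgeR in Old vs Adult, and DESeq2 called Il1b but not Tnf. For PDX vs Adult, edgeR called 6 inducers higher without O2, Tnf among them, and 8 without O2 and O5. In PDX vs Old edgeR and DESeq2 called 0 genes of these 4 lists and of the marker lists, and the 4 had 2, 1, 0 and 0 genes at an unadjusted p under 0.05 by edgeR.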

How the data were processed

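Raw counts of read pairs per gene were deposited by the authors for 15 mice, with 1 library per mouse. Per the submitters' processing notes, reads were aligned with STAR 2.6.0c to mm10 and counted with featureCounts (Subread 1.6.2) on Ensembl build 100, using uniquely aligned pairs. The deposited variance-stabilized table was not used. Symbols, coordinates and exon lengths came from GENCODE M21, which named 55190 of 55450 gene IDs. Counts were fitted with edgeR 4.0.16 in R 4.3.3 (filterByExpr by group with a minimum count of 10 and a total of 15, TMM scaling, quasi-likelihood F test), with all 15 mice in 1 model. Benjamini-Hochberg adjustment covered all 15808 tested genes. The SE of a log2 fold change was taken as its absolute value divided by the square root of the F statistic. The threshold was 0.05, and 0.25 for PDX vs Old as in the study. The code was tested on simulated data. Alternatives were DESeq2 1.42.0, its size factors in edgeR, no filter, only the 10 mice compared, a replicate block, each mouse left out, and O2 and O5 left out. Genes were named if called, if measured in plasma by the study (Ccl2 and Ccl5), if among the 3 smallest p in PDX vs Old, if at a mean of 2 CPM or more in any group, or if the tested receptor or ligand of a called gene. A gene so chosen is not reported here. From each related list, the called genes and the 3 with the smallest p were eligible. Members and lists were chosen with earlier results of these data known. Tables were made in Python 3.11.15 with pandas 2.3.3.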

Additional observations from a re-analysis of the deposited data

Results flagged for a closer look

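Within each group of 5 mice, the gap between the highest or lowest mouse and its nearest neighbor was divided by the range of the group on the log2 CPM scale, and values above 0.71 stood out. Chance gives about 1 in 20 groups where the values are normally distributed, which was not tested, and 15 of 81 stood out. These genes share mice, and some were named through their level in O2, so the counts are a description and not a test. O2 lay above the other Old mice for 7 genes. The ratio was 0.792 for Ccl24, 0.721 for Ccl4, 0.787 for Ccl5, 0.803 for Ccl8, 0.715 for Cx3cl1, 0.792 for Cxcl10 and 0.718 for Cxcl14. O5 lay below the other Old mice for 4 genes. The ratio was 0.805 for Ccl25, 0.847 for Ccl27a, 0.759 for Cx3cr1 and 0.791 for Cxcl12. In the Adult group A5 lay below the others for Cx3cl1, with a ratio of 0.867. In the PDX group P3 lay above the others for Cx3cl1 (0.765) and below them for Ccl24 (0.765), and P1 lay below them for Xcr1 (0.815).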

How the results depend on the processing

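Of the log2 fold changes of the named genes under the alternatives (in PDX vs Old only of genes called in another comparison and the 3 with the smallest p), 1155 kept their direction and their side of the threshold, 112 kept the direction but were no longer called, 87 kept the direction and became called, and 29 reversed. The 1072 genes called in Old vs Adult were 2642 with DESeq2, 665 without the filter (more genes tested), 105 in a fit of only the 10 mice compared, 237 with the replicate block, and 156 to 2178 when a mouse was left out. The 12 members called there were 1 in the fit of 10 mice, 2 with the block, 6 without O2 and O5, and 1 to 17 when a mouse was left out. In PDX vs Old, 0 genes were called by edgeR (834 at an unadjusted p under 0.05) and DESeq2 called 1. The 420 genes called in PDX vs Adult were 1401 with DESeq2, 4529 in the fit of 10 mice, 4004 without O2 and O5, and 166 to 1766 when a mouse was left out. The 2 members called there were 11 with DESeq2, 22 in the fit of 10 mice, 21 without O2 and O5, and 1 to 16 when a mouse was left out. Replicate numbers do not pair animals, and the mean correlation of gene deviations between mice of the same number was −0.168 for Old vs Adult, 0.031 for PDX vs Adult and 0.092 for PDX vs Old (5 pairs each). With the block, 11 of the 31 members changed sign in PDX vs Old and the median turned from −0.34 to 0.20. The log2 fold change was then 0.18 for Ccl4, 0.61 for Ccl5 and 0.033 for Cxcr4, all negative without it. In Old vs Adult without O2 and O5, the log2 fold change turned to −0.32 for Ccl24, −0.38 for Cxcl10 and −0.31 for Cxcl9. When a mouse was left out, it ran from −0.37 to 1.69 for Ccl24, −0.56 to 2.39 for Cxcl10, −0.71 to 2.17 for Cxcl9, −0.081 to 1.31 for Cxcr3 and −0.31 to 3.28 for Xcr1, lowest without O2 and highest without O5 in all 5. In PDX vs Old without O2 and O5, 21 members changed sign. Among the genes followed there it turned to 0.35 for Ccl2, 1.29 for Ccl4, 1.49 for Ccl5, 1.36 for Ccl8, 0.056 for Ccr1, 0.11 for Cx3cl1, 2.52 for Cxcl13, 0.28 for Cxcr2 and 0.70 for Cxcr4. When a mouse was left out, it ran for these genes from −1.49 to 0.16 for Ccl2, −1.42 to 1.24 for Ccl4, −1.26 to 1.68 for Ccl5, −4.76 to 1.05 for Ccl8, −0.65 to 0.0058 for Cx3cl1, −2.89 to 0.66 for Cxcl13, −0.38 to 0.024 for Cxcr2 and −0.59 to 0.43 for Cxcr4, highest without O2 except for Cxcr2, where it was without O5. In PDX vs Adult Ccl25 ran from −0.15 to 0.0022. The cause of these differences between settings was not tested. DESeq2 gave no p for Ccl4, Ccl5, Ccl8, Cxcl9, Cxcl10, Ccl24 or Xcr1, and the fit of the 10 Old and Adult mice tested 25 members. Adult counts were as low as 0 to 5 for Ccl4 and Ccl8, and the smallest difference that 5 mice per group could detect was not tested.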
